A study of Mus musculus with 6 samples.

Results

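The genes described here are 9 parts of the transforming growth factor beta (TGF-beta) pathway and its responses in the submandibular gland (SMG) of female mice. They are the ligands Tgfb1, Tgfb2 and Tgfb3, the receptors Tgfbr1, Tgfbr2 and Tgfbr3, the ligand activator Thbs1, and the matricellular response genes Ctgf and Cyr61. They were chosen by name, for their role, from the 43280 rows of the unfiltered raw count table, and all 9 passed the filter of at least 10 counts summed over the libraries. The choice was made with earlier results of these libraries known, and Ctgf and Cyr61 in particular were named for their response, so their values are given as a description without a test.

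RNA was isolated from adult glands, a mixture of all their cell types, of wild-type (WT) females and of females lacking Hs3st3a1 and Hs3st3b1 (DKO), with 3 libraries in each group. Both deleted genes encode heparan sulfate 3-O-sulfotransferases, on a C57BL/6 background. Per the study, Hs3st3b1 carried a LacZ cassette, and Hs3st3a1 was disrupted by a short zinc-finger-nuclease deletion in its exon 1 that shifts the reading frame. The exact age of the animals was not given in the sources used here, and the labels number the libraries 1, 4 and 5 in both groups.

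TGF-beta is secreted in a latent complex that is stored in the extracellular matrix and released by integrins, proteases or thrombospondin. The active ligand brings together a type II and a type I receptor kinase, which phosphorylate SMAD proteins that then enter the nucleus. Ctgf and Cyr61 are classical targets both of SMAD proteins and of the mechanically regulated coactivators YAP and TAZ, and in glands such genes are active in contractile and stromal cells.

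Total counts ranged from 23674258 to 29611975 per library. Counts per gene did not show the deletions. Hs3st3a1 was at 14.8, 10.8 and 13.4 normalized counts in WT and 10.4, 8.36 and 15.0 in DKO, and Hs3st3b1 was at 171, 199 and 234 in WT and 242, 125 and 218 in DKO. The study reported by qPCR that neither gene was expressed in adult DKO glands, which these counts did not show. Why they differ was not tested. Counts summed over a whole gene do not test a short deletion or an inserted cassette, so WT and DKO below are the labels, and every direction rests on them. Library WT 5 held the highest level of Ctgf, Thbs1, Tgfb2, Tgfb3, Tgfbr1 and Tgfbr2. Library WT 1 held the highest summed lymphocyte markers, most of which was the general leukocyte gene Ptprc. Acinar marker genes summed to between 323793 and 469580 normalized counts per library and duct markers to between 208146 and 289470, so both defining epithelial types of the gland were present in each library.

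Ctgf, which encodes connective tissue growth factor (chr10:24595442-24598683, plus strand, GRCm38, listed as Ccn2 in GENCODE M21), was read 196, 185 and 331 times in WT and 96, 146 and 64 times in DKO. After division by the size factor of each library these were 194, 181 and 296 normalized counts in WT against 91.1, 153 and 73.8 in DKO. Every DKO library lay below every WT library, with DKO 4 nearest to the WT range. The mean was 224 ± 63.3 in WT and 106 ± 41.4 in DKO (SD, n = 3 each), 2.11-fold lower in DKO, and the log2 fold change was -1.08 with an SE of 0.28. In bulk RNA, fewer cells of a type and less RNA per cell cannot be told apart, for this gene as for all others below.

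Cyr61 encodes a related secreted protein that binds integrins and heparan sulfate (chr3:145646976-145649981, minus strand, listed as Ccn1). Its normalized counts were 142.5, 99.8 and 116 in WT and 46.5, 93.0 and 51.9 in DKO. The groups did not overlap, but DKO 4 lay close below WT 4, and it was also the DKO library with the highest Ctgf. The mean was 119 ± 21.6 in WT and 63.8 ± 25.5 in DKO (SD, n = 3 each), 1.87-fold lower in DKO (log2 fold change -0.90, SE 0.30). Leaving out 1 library at a time moved the log2 fold change of Ctgf between -1.44 (without DKO 4) and -0.82 (without WT 5), and that of Cyr61 between -1.28 (without DKO 4) and -0.71 (without DKO 1).

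**Figure D1:**
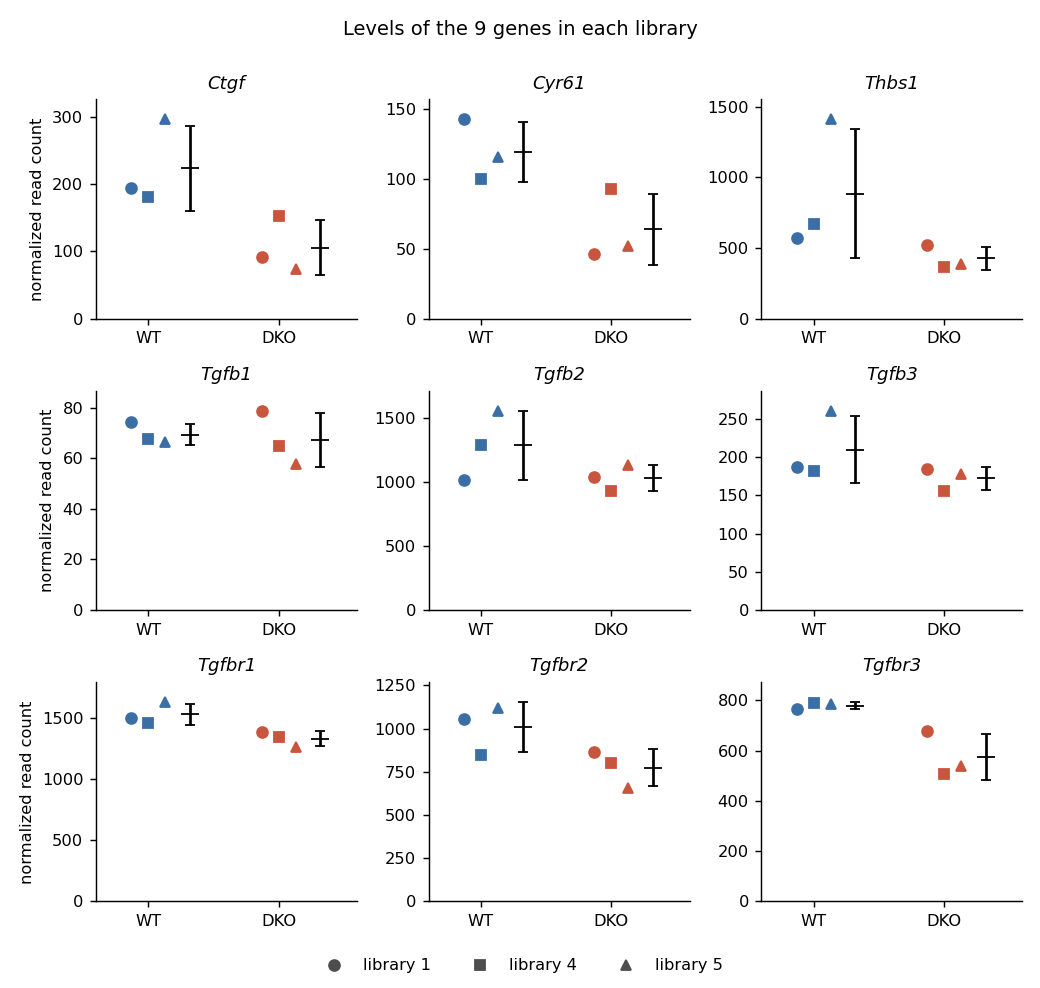
Normalized read counts (y axis, linear, from 0) of the 9 genes in the 3 WT (blue) and 3 DKO (red) libraries, with the library number as the symbol and the mean and SD (n = 3) as bars. Ctgf, Cyr61, Thbs1, Tgfbr1 and Tgfbr3 have no overlap between groups, whereas the WT values of Tgfb1 lie within its wider DKO range.

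The sequence before the start of Cyr61 is shown because this gene responds to YAP and TAZ through TEAD factors, and that of Tgfb2 because it was the most abundant ligand. Both are the 250 bases upstream of the start in RefSeq (GRCm38.p6), written 5′ to 3′ on the gene's strand. Capitals mark matches to the TEAD motif GGAATG in Cyr61, on the opposite strand as CATTCC, and to the SMAD element CAGAC in Tgfb2. Cyr61 lies at chr3:145649986-145650235 (minus strand) and Tgfb2 at chr1:186705990-186706239 (minus strand).
Cyr61 upstream: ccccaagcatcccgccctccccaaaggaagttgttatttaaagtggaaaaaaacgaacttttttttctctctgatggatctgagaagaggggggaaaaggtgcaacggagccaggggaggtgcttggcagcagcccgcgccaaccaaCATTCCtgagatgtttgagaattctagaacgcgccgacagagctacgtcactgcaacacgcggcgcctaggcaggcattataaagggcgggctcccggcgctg
Tgfb2 upstream: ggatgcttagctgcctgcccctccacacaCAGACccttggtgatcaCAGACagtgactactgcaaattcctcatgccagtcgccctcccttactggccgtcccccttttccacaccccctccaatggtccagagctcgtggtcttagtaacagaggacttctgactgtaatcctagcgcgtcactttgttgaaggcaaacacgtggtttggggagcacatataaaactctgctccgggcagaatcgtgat
The TEAD match of Cyr61 begins at position -103, counted from the start, and the CAGAC matches of Tgfb2 at -221 and -204. Of 32851 promoters in the table, each searched on both strands over 250 bases before and 50 after the start, 14.7% held GGAATG and 49.6% held CAGAC. The longer SMAD palindrome GTCTAGAC was found in 0.213% of promoters, the AP-1 motif TGANTCA in 7.81% and the CArG box, the binding sequence of SRF, in 1.63%, and none of these 3 was found in the windows of the 5 genes that matched. Those genes were Cyr61, Tgfb1, Tgfb2, Tgfbr1 and Tgfbr2. Cyr61 also held 1 CAGAC match after its start, at position 3, Tgfbr2 held 1 CAGAC match at -160, Tgfbr1 held 1 at -203 of the second of its 2 windows, and the Tgfb1 window held none of the motifs. Ctgf, Tgfb3, Tgfbr3 and Thbs1 were not in the table.

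Thbs1 encodes thrombospondin-1, a matrix glycoprotein that can release TGF-beta from its latent complex (chr2:118111876-118127133, plus strand). It was at 572, 672 and 1409.8 normalized counts in WT and at 523, 368 and 387 in DKO. The groups did not overlap, but WT 5 stood far above all others, and DKO 1 was close to WT 1. The mean was 885 ± 458 in WT and 426 ± 84.3 in DKO (SD, n = 3 each), and the difference of -1.05 on the log2 scale (SE 0.44) did not pass the threshold of 0.05 by DESeq2 (adjusted p = 0.195), which was adjusted over all 16050 rows, as were the DESeq2 values below. Without WT 5 the log2 fold change was -0.54 (DESeq2 adjusted p = 0.228), and with each of the 6 libraries left out in turn Thbs1 passed 0 times (DESeq2 adjusted p from 0.164 to 0.580). The size of the difference thus rested largely on 1 library.

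Of the ligands, Tgfb2 (chr1:186622792-186705989, minus strand) was at 1017, 1289 and 1557 normalized counts in WT and at 1038, 931 and 1129.9 in DKO. WT 1 lay within the DKO range, and the difference of -0.32 ± 0.16 (SE) on the log2 scale did not pass the test (DESeq2 adjusted p = 0.323). Tgfb3 (chr12:86056745-86079041, minus strand) was at 187, 182 and 261 in WT and at 184, 156 and 178 in DKO. WT 5 alone stood apart, and a log2 difference of -0.28 with an SE of 0.20 did not pass either (DESeq2 adjusted p = 0.614).

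Tgfb1 (chr7:25687002-25705077, plus strand), the ligand best known from immune cells and platelets, was at 74.2, 67.5 and 66.3 normalized counts in WT and at 78.7, 64.8 and 57.6 in DKO. All WT libraries lay within the DKO range, which was the wider of the pair. The log2 fold change was -0.04, with a 95% Wald interval from -0.57 to 0.49 and a DESeq2 adjusted p of 0.978, so changes within that interval were not resolved with these libraries. Leaving out WT 1 or DKO 5 turned its sign, to 0.0079 and 0.0539. Per kilobase of merged exon, Tgfb2 made up 74.4% ± 2.69 of the summed level of the 3 ligands in WT and 73.5% ± 1.73 in DKO, Tgfb3 made up 20.8% ± 2.04 and 21.0% ± 0.785, and Tgfb1 made up 4.76% ± 1.17 and 5.51% ± 0.972 (SD, n = 3 each). These ranges overlapped between the groups for each ligand.

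Of the receptors, Tgfbr3 passed the test. It encodes betaglycan, a membrane proteoglycan that carries heparan sulfate chains and presents ligand, Tgfb2 in particular, to the signalling receptors (chr5:107106570-107289629, minus strand). It was at 765, 790.4 and 785 normalized counts in WT and at 680.3, 507 and 540 in DKO. The WT libraries lay within a narrow band and all DKO libraries below it. The mean fell from 780.0 ± 13.3 to 576 ± 92.1 (SD, n = 3 each), which is -0.44 on the log2 scale with an SE of 0.14 (DESeq2 adjusted p = 0.0438). This call lay close to the threshold. It was lost with edgeR (adjusted p = 0.170), with limma-voom (adjusted p = 0.207) and in 5 of 6 fits that left out 1 library, with a DESeq2 adjusted p of up to 0.304 without DKO 5 and of 0.00028 without DKO 1.

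Tgfbr2, the type II receptor kinase that binds ligand first (chr9:116084293-116175360, minus strand), was at 1057, 844 and 1121 normalized counts in WT and at 866, 802 and 654 in DKO. WT 4 lay within the DKO range. The difference of -0.38 on the log2 scale, with an SE of 0.15, did not pass (DESeq2 adjusted p = 0.152), and Tgfbr2 passed among the leave-one-out fits only without WT 4 (DESeq2 adjusted p = 0.0351). Tgfbr1, the type I kinase that phosphorylates SMAD proteins (chr4:47353222-47414931, plus strand), was at 1502, 1463 and 1634 in WT and at 1389, 1350.4 and 1265 in DKO. The groups did not overlap, but the difference was small, -0.20 ± 0.10 (SE) on the log2 scale, and did not pass the test (DESeq2 adjusted p = 0.348).

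**Figure D2:**
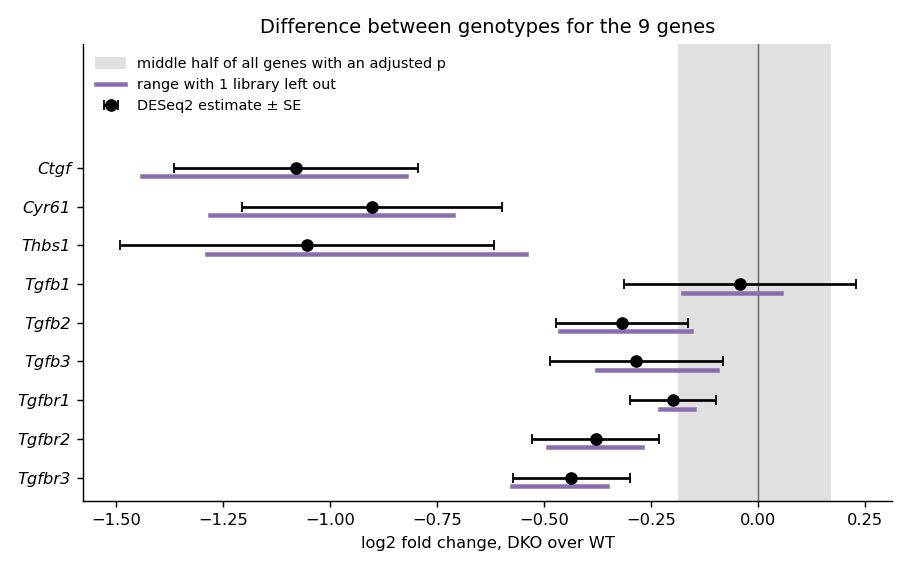
Log2 fold change of DKO over WT (x axis) for each of the 9 genes (y axis), with the DESeq2 estimate and its SE in black, the range when 1 library was left out in purple, and the interquartile range of all rows with an adjusted p, from -0.19 to 0.17, as a grey band. All 9 estimates lie below 0, from -1.08 for Ctgf to -0.04 for Tgfb1, and the purple range of Tgfb1 alone crosses 0.

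The 9 log2 fold changes were all below 0, with a median of -0.38, where the median over all 18606 tested rows was 0.0011. Of the 16050 rows with an adjusted p, 48.9% were below 0, and their median was 0.0065. In 5 of the 9, every DKO library lay below every WT library, which also held for 11.0% of the 16050 rows with an adjusted p. Of the 7 ligand, receptor and activator genes, 1 passed DESeq2 and 5 had an unadjusted p under 0.05, where 3.36% and 13.8% of rows did so, respectively. With edgeR 0 of the 7 passed and 4 had an unadjusted p under 0.05, where 0.0537% and 15.0% of all rows did so. The counts with limma-voom were also 0 and 4, where 0.0376% and 14.0% of all rows did so. Because the genes were picked with results known, these counts describe them and support nothing further. Scaling by total counts instead moved the median over all rows to -0.23 and that of the 9 genes to -0.62, which is -0.38 relative to all rows.

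On the scale of normalized counts per kilobase of merged exon, the order of the WT means was Tgfbr1 at 235 ± 13.7, Tgfb2 at 222 ± 46.6, Thbs1 at 146 ± 75.3, Tgfbr2 at 123 ± 17.7, Tgfbr3 at 119 ± 2.04, Ctgf at 78.2 ± 22.1, Tgfb3 at 62.0 ± 13.02, Cyr61 at 59.1 ± 10.7 and Tgfb1 at 13.8 ± 0.848 (SD, n = 3 each). The ranges of neighbours over the WT libraries overlapped, with 2 exceptions. All WT values of Tgfbr3 lay above all those of Ctgf, and all of Cyr61 above all of Tgfb1. In DKO the order was Tgfbr1 at 204 ± 9.73, Tgfb2 at 178 ± 17.2, Tgfbr2 at 94.5 ± 13.3, Tgfbr3 at 87.9 ± 14.1, Thbs1 at 70.2 ± 13.9, Tgfb3 at 51.0 ± 4.39, Ctgf at 37.0 ± 14.5, Cyr61 at 31.6 ± 12.6 and Tgfb1 at 13.3 ± 2.13. Here all DKO values of Tgfb2 lay above all those of Tgfbr2, and likewise Thbs1 above Tgfb3 and Cyr61 above Tgfb1. The ranges of the other neighbours overlapped. The mean of Thbs1 thus stood above those of Tgfbr2 and Tgfbr3 in WT and below them in DKO, and the means of Ctgf and Tgfb3 exchanged places. The WT place of Thbs1 rested on WT 5, at 232. In WT 1 Thbs1, at 94.2, lay below Tgfbr2 at 129 and Tgfbr3 at 117, and in WT 4, at 111, below Tgfbr3 at 121. With the longest transcript as the length, Tgfb1 stood at 26.9 in WT and 26.1 in DKO and was still the lowest.

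**Figure D3:**
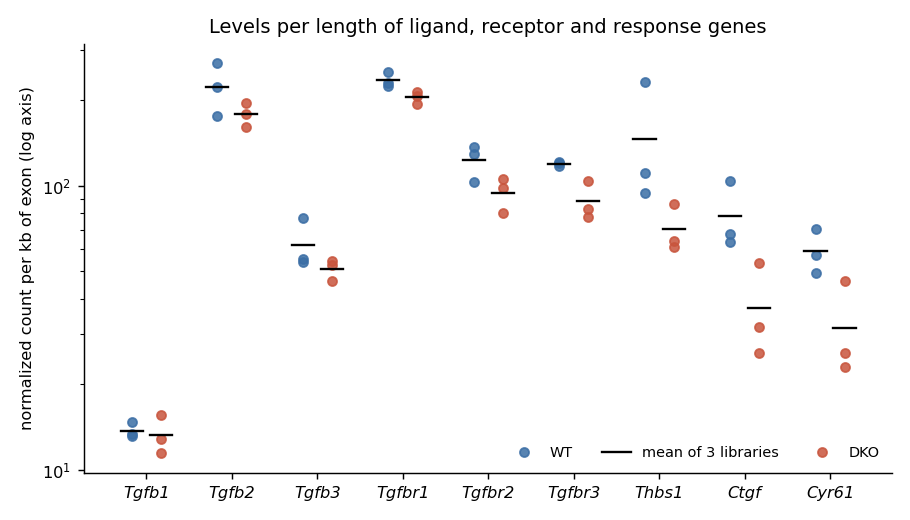
Normalized counts per kilobase of merged exon (y axis, log scale) for the 9 genes (x axis) in each WT (blue) and DKO (red) library, with the mean of 3 libraries as a line. Tgfbr1 and Tgfb2 are highest in both groups and Tgfb1 is lowest.

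The genes whose pattern over the 6 libraries was most like that of Ctgf were ranked by the root mean square difference of centred log2(normalized count + 1), over 11488 genes with a mean of at least 50. They were Ggt1, a gamma-glutamyltransferase, at 0.172, Fkbp5, a steroid receptor cochaperone induced by glucocorticoids, at 0.237, the matrix protein Adamtsl2 at 0.257, the methyltransferase Inmt at 0.276 and Postn, the matricellular protein periostin, at 0.283, where the median gene was at 0.693. Cyr61 ranked 7 with 0.305, Thbs1 208 and Tgfbr2 313. For Cyr61 the closest was Fkbp5 at 0.112, with 968, 731 and 941 normalized counts in WT and 393, 639.7 and 394 in DKO, so that DKO 4 was again the highest of its group. It was followed by 2610507I01Rik at 0.221, Cd84 at 0.244, Slc28a3 at 0.255 and Dusp1 at 0.258, while Ctgf ranked 20 and Thbs1 7462. These are descriptions over 6 libraries that share their groups.

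The pathway around the 9 genes was followed in 8 lists with 115 genes, of which 112 were tested. Of these, 87 had a log2 fold change below 0 and 9 passed DESeq2, all lower in DKO. Among the 16050 rows with an adjusted p, 48.9% were below 0 and 13.8% had an unadjusted DESeq2 p under 0.05. Of the same rows, 2.18% were called lower and 1.18% higher. Over all rows 350 were lower and 189 higher, and with total counts as the scale 1407 were lower and 62 higher. These 9 had edgeR adjusted p-values from 0.118 to 0.208 and limma-voom adjusted p-values from 0.118 to 0.236, and thus passed neither of those tests. Among genes that store and activate TGF-beta, 4 of 22 fell, 0 rose and 20 of 22 were below 0, with a median of -0.30. They were Fbn1, the fibrillin to which latent complexes are anchored (1008 ± 196 to 621 ± 184, log2 fold change -0.70, DESeq2 adjusted p = 0.0228), Itgb3, an integrin beta chain (150.2 ± 14.4 to 77.2 ± 15.5, -0.95, DESeq2 adjusted p = 0.00423), and the TGF-beta-binding proteoglycans Dcn (4346 ± 342 to 3141 ± 628, -0.47, DESeq2 adjusted p = 0.0305) and Bgn (1021 ± 299 to 619.5 ± 107, -0.72, DESeq2 adjusted p = 0.0141), in mean normalized counts ± SD with n = 3. Among these 4 genes, Fbn1 overlapped between the groups, with DKO 1 above WT 4, and the others did not. Without WT 5, 0 of these 4 passed, as also without DKO 4 or DKO 5.

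Of 19 receptor partners and SMAD signalling genes, 0 passed DESeq2, edgeR or limma-voom and 0 had an unadjusted DESeq2 p under 0.05, with 13 below 0 and a median of -0.07. The lowest p-values were those of Tgif2, a SMAD corepressor (32.6 ± 4.41 in WT, 18.5 ± 3.42 in DKO, DESeq2 adjusted p = 0.394), and Skil, another inhibitor of SMAD proteins (942 ± 135 and 823 ± 105, DESeq2 adjusted p = 0.650). Of 16 other TGF-beta response genes, 1 fell and 0 rose, with 12 below 0 and a median of -0.30 (-0.09 without WT 5). That gene was Tgfbi, a secreted matrix protein named for its induction by TGF-beta, at 368 ± 15.1 in WT and 258 ± 24.8 in DKO (SD, n = 3; log2 fold change -0.51, DESeq2 adjusted p = 0.0250).

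Of 18 YAP, TAZ and Hippo regulators, 1 fell, 0 rose and 12 were below 0, with a median of -0.05. It was Amot, a junction protein that holds YAP back, at 980.0 ± 56.9 in WT and 742 ± 92.4 in DKO (log2 fold change -0.40, DESeq2 adjusted p = 0.0448). Of 18 tested YAP and TAZ targets other than Ctgf and Cyr61, 0 passed DESeq2, edgeR or limma-voom. An unadjusted DESeq2 p under 0.05 was found for 6, against 13.8% of rows with an adjusted p. A log2 fold change below 0 was found for 16, against 48.9% of those rows, with a list median of -0.23. Axl, a receptor tyrosine kinase, came nearest to passing (953 ± 168 and 667 ± 133, DESeq2 adjusted p = 0.0647), followed by Myof, a membrane repair protein (1278 ± 177 and 967 ± 135, DESeq2 adjusted p = 0.0973). The remaining members of that list, Ankrd1 and Foxf2, were below the count filter. Among SRF and its cofactors, 1 of 4 fell, Mkl2, an actin-regulated SRF coactivator (1544 ± 130.1 to 1195 ± 78.5, log2 fold change -0.37, DESeq2 adjusted p = 0.0306).

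Of 7 tested other CCN and thrombospondin genes, the paralogs of Ctgf, Cyr61 and Thbs1, 0 passed DESeq2, edgeR or limma-voom. Of the 7, 6 were below 0, against 48.9% of rows with an adjusted p. An unadjusted DESeq2 p under 0.05, held by 13.8% of those rows, was found for 2 genes. These were Thbs2, at 138, 82.2 and 305 normalized counts in WT and 96.8, 41.8 and 54.2 in DKO (DESeq2 adjusted p = 0.252), and Thbs4, at 7.92, 0.978 and 65.4 in WT and 5.69, 7.32 and 1.15 in DKO (DESeq2 adjusted p = 0.249). As with Thbs1, WT 5 was the highest library of both. The median of this list was -0.46 with all libraries and -0.23 without WT 5. Wisp3 was below the filter. Of 15 immediate early genes, which respond to serum, stress and handling, 2 fell and 0 rose. Klf6, a transcription factor, went from 985 ± 16.4 to 657 ± 89.2 (log2 fold change -0.58, DESeq2 adjusted p = 0.000701) and passed in each fit that left out 1 library. Dusp1, a MAP kinase phosphatase, went from 127 ± 17.3 to 68.7 ± 14.1 (log2 fold change -0.88, DESeq2 adjusted p = 0.0219). Of the other pathway genes that passed, Dusp1, Tgfbi, Amot and Dcn each passed in 1 of 6 fits that left out 1 library, Mkl2, Fbn1 and Bgn in 2 and Itgb3 in 3. The summed level of the immediate early list ranged from 3400.2 to 4119 in WT and from 3431 to 3655 in DKO, and Fos at a log2 fold change of -0.60 and Egr1 at 0.38 did not pass (DESeq2 adjusted p = 0.708 and 0.785).

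**Figure D4:**
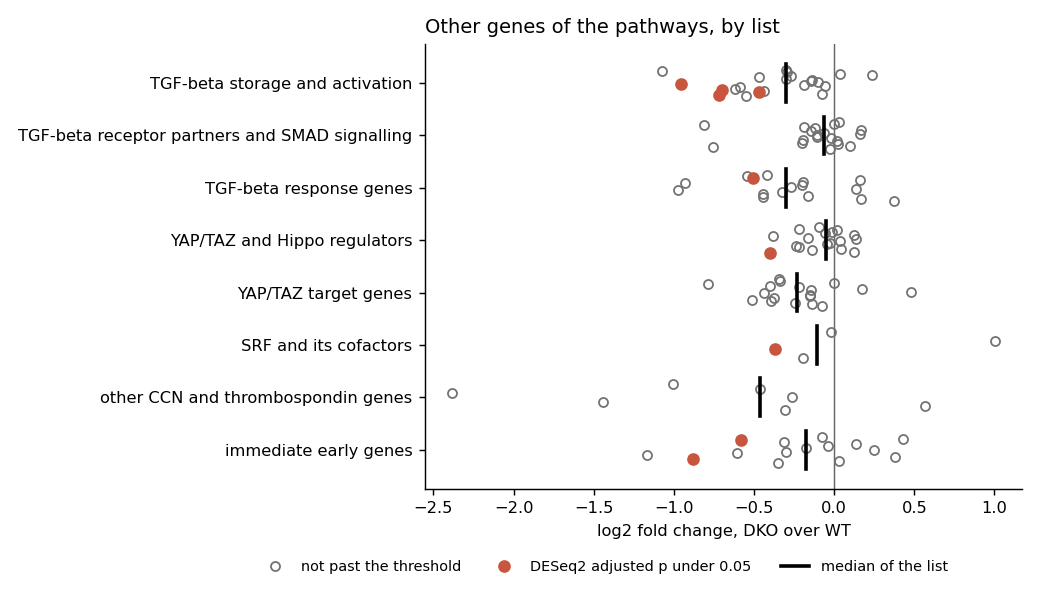
Log2 fold change of DKO against WT (x axis) for each tested gene of the 8 pathway lists (y axis), with genes that passed DESeq2 (adjusted p under 0.05) as filled red points and the median of each list as a black bar. The 9 filled points all lie below 0, and the medians range from -0.46 for the other CCN and thrombospondin genes to -0.05 for the Hippo regulators.

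Markers of several cell types moved with the same labels. Markers are counted here by DESeq2 alone, where 2.18% of rows were called lower and 1.18% higher. Of 9 tested myoepithelial markers, 7 fell, and in 8 every DKO library lay below every WT library, as in 11.0% of rows. Trp63 (log2 fold change -0.60, DESeq2 adjusted p = 0.0599) and Krt5 (-0.0057, DESeq2 adjusted p = 0.997) did not pass. The summed level was 11134 to 11996 normalized counts in WT and 6135 to 8101 in DKO, with no overlap. Many of these myoepithelial genes were listed by the study from these libraries and are no independent evidence. Of 8 fibroblast markers, 4 of which (Dcn, Col1a1, Col1a2 and Col3a1) are also in the lists above, 3 fell, at 11298 to 16170.2 summed in WT and 8513 to 12137 in DKO, overlapping, with WT 5 the highest library as for Ctgf and Thbs1. The mean fibroblast sum without WT 5 was 12112 in WT, against 10062 in DKO. Macrophage markers fell in 3 of 5 tested (1431 to 2330 in WT, 1010.0 to 1411 in DKO), and lymphocyte markers in 2 of 6 (637 to 1676 in WT, 291 to 547 in DKO). Of these 2, both at few counts, Cd8a was at 37.6, 9.78 and 22.4 normalized counts in WT and at 0 in every DKO library. Ms4a1 was at 60.4, 0.978 and 5.37 in WT and 0, 1.05 and 1.15 in DKO. Its groups overlapped, and WT 1 stood far above the other libraries. Most of the lymphocyte sum was Ptprc, a gene of leukocytes in general, at 1499, 617 and 1007 in WT and 544, 357 and 288 in DKO. The sum is therefore not a level of lymphocytes alone.

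For vascular smooth muscle and pericyte markers 0 of 7 passed DESeq2, and 0 had an unadjusted p under 0.05, at 2277 to 2631 summed in WT and 2312 to 2608 in DKO. For endothelial markers 0 of 8 passed and 4 had an unadjusted DESeq2 p under 0.05, against 13.8% of rows with an adjusted p. Of the 8, 7 were above 0, where 48.9% of those rows were below 0. The endothelial sums were 2049 to 2342 in WT and 2237 to 2720 in DKO. Platelet markers, of interest because platelets carry Tgfb1 and Thbs1, summed to between 29.98 and 69.3 normalized counts in all libraries, with Gp1ba and Gp9 below the filter. DKO 4, the DKO library with the highest Ctgf and Cyr61, had myoepithelial and fibroblast sums of 6688 and 8513, between the other DKO libraries for the former and the lowest for the latter. The part of these cell types in the levels of the 9 genes was not tested.

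**Figure D5:**
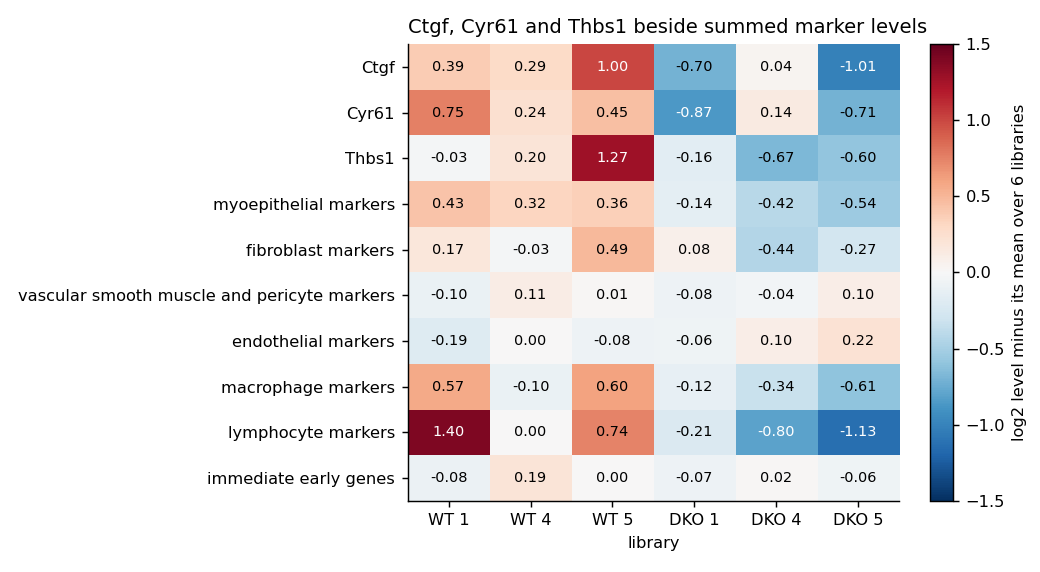
Log2 level of Ctgf, Cyr61, Thbs1 and the summed marker lists (rows) in each library (columns), minus its mean over the 6 libraries, as colour and number. Ctgf at 0.04 and Cyr61 at 0.14 in DKO 4 are near their means, while the myoepithelial sum there is at -0.42. The lymphocyte row is mostly the general leukocyte gene Ptprc.

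Reads were unstranded, so those of overlapping genes on opposite strands cannot be told apart. Gm15270 shares 665 exon bases with Ctgf but was assigned 3 to 7 counts per library, Gm29491 shares 124 with Tgfb2 at 2 to 7 counts, and Gm29233 shares 208 with Thbs1 at 0 counts. Gm37804 and Gm48008 share 163 and 257 exon bases with Tgfb3 and were not analysed here. Gm42900, Gm43422 and Gm43423 overlap Tgfbr3 on its own strand, and their part in its counts was not analysed either.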

How the data were processed

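Gene expression was measured by RNA-seq (unstranded Nextera XT, HiSeq2500) of 6 SMG libraries, 3 WT and 3 DKO. The authors deposited unnormalized read counts for each gene symbol, and the unfiltered table was used. The submitters' processing notes name STAR 2.5.2a, DESeq2, edgeR and limma and the builds GRCh38, GRCm38 and mm10; the counting tool and annotation were not given in the sources used here. The authors' filtered and normalized tables were not used.

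Rows with at least 10 summed counts (18606 of 43280) were tested with DESeq2 1.42.0 (median-of-ratios size factors, two-sided Wald test, default independent filtering, Benjamini-Hochberg adjustment, threshold 0.05), the test named in the study's methods. An adjusted p was given for 16050 rows. Alternatives were edgeR 4.0.16 quasi-likelihood, limma 3.58.1 voom, other size factors and filters, a replicate block and leaving out each library. The scripts were tested on simulated data. Annotation was GENCODE M21 (GRCm38), and promoters came from RefSeq (GRCm38.p6).

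The 9 genes and all lists were chosen with earlier results of these data known. Named besides them were the 2 targeted genes, the list genes that passed (or up to 2 of lowest p) and the 5 genes most alike to Ctgf and Cyr61. The genes Fos and Egr1 were added after their values were seen. Replicate libraries differed by more than sampling noise (chi-square per degree of freedom 16.8 to 43.4). The labels do not say whether glands came from separate animals. The p-values set the group difference against the spread between these libraries, which may not be the spread between animals. With 3 against 3, an exact two-sided permutation test cannot go below 0.1.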

Additional observations from a re-analysis of the deposited data

How the results depend on the processing

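Over the 15 alternatives the log2 fold change of Ctgf ranged from -1.44 to -0.82 and that of Cyr61 from -1.28 to -0.71. The groups of both genes did not overlap, so leaving out 1 library could not turn their direction. Switching off independent filtering or the Cook filter cannot change a fold change either, so the kept direction is no support. Counts of genes passing the test depended on the tool. Over all rows 539 genes passed DESeq2, 10 edgeR and 7 limma-voom, 1469 with total counts as size factors, and 146 to 815 when 1 library was left out. Of the 7 ligand, receptor and activator genes, 1 passed, against 0 with edgeR, limma-voom or independent filtering off, 4 with total counts and 0 to 1 when 1 library was left out. Of the pathway genes 9 passed, against 0 with edgeR and limma-voom, 27 with total counts and 1 to 15 when 1 library was left out, with 1 without WT 5 or DKO 5 and 15 without DKO 1. The log2 fold change of Tgfb1 ranged from -0.176 to 0.0539 when 1 library was left out, above 0 without WT 1 (0.0079) or DKO 5. Of the YAP and TAZ targets, 0 passed, against 8 with total counts, 1 without WT 4 and 2 without DKO 1. The cause of these shifts was not tested.

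Libraries of the same number did not deviate together (correlations -0.133, -0.0244 and -0.259 over 11489 genes, and 0 of 3 WT libraries correlated best with its own number), so the numbers were not taken as pairs. With the replicate block 343 rows, 0 of the 7 genes and 5 pathway genes passed. Few counts, as for Tgfb1, and the small number of libraries limit what small differences could be seen.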
